A study of Homo sapiens and Mus musculus with 30 samples.

Results

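The polysome to total RNA ratio of each gene, a relative measure and no share of its transcripts, was compared between 2 cell lines. These were the human HEK293A, derived from embryonic kidney, and the mouse NIH3T3, derived from embryonic fibroblasts. RPKM is a read count scaled by gene length and library size, and polysome RNA is RNA bound to several ribosomes. The measure, called occupancy, is a log2 ratio of polysome to total RNA levels in RPKM, with 0.5 added to each. Each library's median over the genes was set to 0, so a value of 1 means a polysome to total ratio of 2 times that of the median gene in the same cells. Genes were matched by symbols that were equal when case was ignored, and a mean of at least 1 RPKM was asked for in each line. That left 7259 genes of 9365 shared symbols, in tables of 11342 human and 41128 mouse genes. Symbols are given in capitals for both species.

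The series varied LIN28B, which binds RNA and blocks maturation of let-7 microRNAs, in graded steps, and 20 of its 30 libraries enter here. Both lines were grown in medium with 10% serum, and the LIN28B transgenes were induced with doxycycline at 10 ng/ml. Level X0 is the lin28b knockout and X1, X2, X3 and X4 carry rising amounts of LIN28B. The series text gives this for HEK293A and says that NIH3T3 followed the same design, but no NIH3T3 title mentions a knockout. Each line gave 1 polysome and 1 total RNA library per level, hence 5 occupancy values per line. The levels are not replicates of one condition, so the spread within a line holds any effect of LIN28B, and p-values measure the difference between lines against that spread. The sources used here do not say whether the 2 replicates named in the series text were pooled, whether the cells were clones, or whether X0 cells also got doxycycline. Species, cell line, culture, library preparation, annotation and read handling all change with the line and cannot be told apart.

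Messenger RNAs that are being translated carry several ribosomes and sediment with polysomes, while untranslated ones stay in light fractions. The mRNAs of ribosomal proteins and many translation factors begin at the cap with a C and a run of pyrimidines, called a TOP motif (terminal oligopyrimidine), and are known to move in and out of polysomes together with the activity of the growth kinase mTORC1. Transcripts of the mitochondrial genome are translated inside mitochondria and are not expected on cytosolic polysomes.

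LIN28B RNA rose with the labelled level in HEK293A and was lowest, but not at 0, in the library labelled X0. Total RNA held 3.60, 23.0, 33.4, 81.2 and 208 RPKM of LIN28B in HEK293A from X0 to X4. NIH3T3 total RNA held 0.0074, 0.011, 0.012, 0.083 and 0.35 RPKM of the mouse gene, based on 1, 1, 1, 9 and 42 reads. The HEK293A X0 libraries, labelled as the knockout, held 799 LIN28B reads in total RNA and 126 in polysome RNA, and a gene total does not show whether a deleted part is missing. NIH3T3 polysome libraries held 1, 3, 4, 13 and 42 reads, so that only X3 and X4 stand clearly above X0 in that line and X0 to X2 could not be checked. LIN28B is under the RPKM minimum in NIH3T3 and is no member of the genes compared. Reads recovered from the whole-number steps of the RPKM values came to 9085007 to 14592558 per polysome library and 37654587 to 56002258 per total RNA library in HEK293A. In NIH3T3 they came to 15929522 to 20818681 and 16071511 to 25002489. The median counting error of a gene's occupancy was 0.063 to 0.087 log2 units. Of 21 fibroblast markers, 19 were at 1 RPKM or more in all 5 NIH3T3 total RNA libraries against 10 in HEK293A. The summed level of the 21 was 8809 to 9638 RPKM in NIH3T3 and 147 to 206 RPKM in HEK293A. S100A4 (4950 to 6428 RPKM) and VIM (1221 to 2994 RPKM) were the largest parts of the NIH3T3 sum, while POSTN and CDH11 stayed under 1 RPKM there. Of 16 markers of HEK293 cells, 8 passed in HEK293A and 1 in NIH3T3, with sums of 152 to 173 RPKM and 4.66 to 6.71 RPKM. The kidney factors PAX2 and PAX8 are among the 8 with no HEK293A value here, and every gene of the human table was at 1 RPKM or more in each total RNA library. Of 8 leukocyte markers, 2 (CD68 and CD14) passed in NIH3T3.

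The largest differences lay in genes that build the ribosome. Of 79 cytosolic ribosomal protein genes listed 74 could be tested, and all 74 had a higher occupancy in HEK293A (limma, adjusted p under 0.05). Of all 7259 genes 30.5% were higher and 26.8% lower, 57.3% in all. The median difference of the 74 was 4.39 log2 units, a 21.0-fold higher ratio, against -0.02 over all genes. Their medians per level were 0.90, 1.20, 1.60, 1.83 and 1.84 from X0 to X4 in HEK293A, and -3.13, -2.72, -3.02, -2.99 and -2.73 in NIH3T3. So the median of these genes lay above the median gene at every HEK293A level and far below it at every NIH3T3 level, with HEK293A values higher at the higher LIN28B levels. Without centring, the median difference of all genes was -1.08, since HEK293A libraries had uncentred medians of -0.61 to -0.13 and NIH3T3 libraries of 0.64 to 0.78, so that every direction below is relative to the median gene. Of the lists below with a positive median, those of cytosolic ribosomal proteins, TOP translation factors, noncoding RNAs, mitochondrial ribosomal proteins, respiratory chain and TRiC stayed positive without centring and the others turned negative. In bulk libraries, a lower ratio in all cells and a full loss in some of the cells cannot be told apart.

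**Figure D1:**
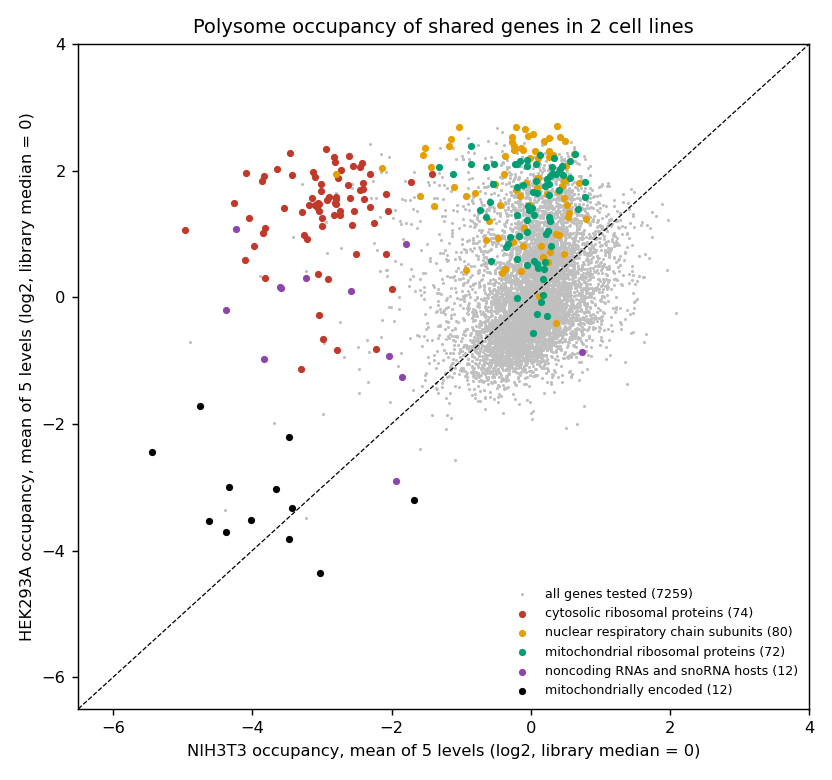
Mean occupancy over 5 LIN28B levels (log2, library median at 0) of 7259 shared genes, NIH3T3 on the horizontal and HEK293A on the vertical axis, with equal values on the dashed line. The 74 cytosolic ribosomal protein genes lie mostly at the upper left, with list medians of 1.48 in HEK293A and -2.93 in NIH3T3, while the 12 mitochondrially encoded genes lie low in both lines.

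The starts of some of these genes are shown because the TOP motif is the sequence feature by which the group is known. The windows run from 10 bases before to 20 bases after the RefSeq start of the human gene (GRCh38.p14), read along the transcribed strand, and capitals mark the pyrimidine run that begins with a C at the first transcribed base. SOX4 and TM9SF3 are given beside them and hold no such run. They had the largest differences in the other direction among genes at 5 RPKM or more in both lines and without overlap. The other genes shown were not chosen by a rule, so the windows do not compare the directions. As counted below, 19 ribosomal protein genes lacked a TOP-like start, and only 5.97% of tested genes with a known start held one.
RPL41: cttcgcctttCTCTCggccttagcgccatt
RPS12: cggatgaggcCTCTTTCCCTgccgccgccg
RPLP1: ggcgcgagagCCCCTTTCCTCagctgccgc
RPL39: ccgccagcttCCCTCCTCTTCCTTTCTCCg
EEF1A1: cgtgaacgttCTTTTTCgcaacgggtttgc
TPT1: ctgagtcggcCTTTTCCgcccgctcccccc
NACA: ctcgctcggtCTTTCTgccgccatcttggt
COX7A2L: gaggcggggtCCTTCTCTggggcggtcgcg
TOMM7: ctgcgcacctCCTTTCCCTTTCggattccc
SOX4: attggggtctgctctaagctgcagcaagag
TM9SF3: ggggaggctcaggagcgggcggtgacggcg
These windows lie at chr12:56116623-56116652 on the plus strand for RPL41, chr6:132814559-132814588 on the plus strand for RPS12, chr15:69452808-69452837 on the plus strand for RPLP1 and chrX:119791611-119791640 on the minus strand for RPL39. EEF1A1 lies at chr6:73521013-73521042, TPT1 at chr13:45341164-45341193, NACA at chr12:56725280-56725309, COX7A2L at chr2:42361198-42361227 and TOMM7 at chr7:22822830-22822859, all on the minus strand. SOX4 lies at chr6:21593741-21593770 on the plus strand and TM9SF3 at chr10:96586993-96587022 on the minus strand.

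A TOP-like start was counted as a C at the first transcribed base followed by at least 4 bases that are C or T, on the transcribed strand only. It was found in 4.04% of 27305 RefSeq starts and in 349 of the 5845 tested genes whose symbol matched a start (5.97%). Among the ribosomal protein genes 40 of 59 with a start held it, and among the TOP translation factors listed below 11 of 12. Outside the ribosomal protein genes, 309 genes with a TOP-like start had a median difference of 0.24, against -0.04 for 5477 genes without one. Of the 309, 41.4% were higher and 17.8% lower in HEK293A, against 28.9% and 27.6% of the 5477. Within the ribosomal protein genes the median difference was 4.51 for the 40 with a TOP-like start and 4.15 for the 19 without, so the large difference was there in both. A match is a description of the reference start and not of the start used in these cells, and mouse starts were not analysed here.

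RPS29, a protein of the small ribosomal subunit, had the largest difference. Its polysome level was 93.7, 97.7, 111, 138 and 123 RPKM in HEK293A from X0 to X4 and its total RNA level 38.4, 32.8, 40.6, 36.3 and 32.6 RPKM. In NIH3T3 the polysome level was 217, 190, 205, 209 and 207 RPKM and the total RNA level 2143, 2082, 2337, 2180 and 2035 RPKM. The polysome level of RPS29 exceeded the total RNA level at every HEK293A level and was far below it at every NIH3T3 level. Occupancy of RPS29 was 1.41, 1.79, 1.75, 2.39 and 2.51 in HEK293A and -4.03, -4.12, -4.29, -4.08 and -3.94 in NIH3T3, without overlap. The difference was 6.06 ± 0.20 log2 units (SE, 5 levels per line, limma adjusted p = 7.19e-11), which is 66.8-fold.

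RPL41, a very small protein of the large subunit, had an occupancy of 0.62, 0.88, 0.48, 1.65 and 1.70 in HEK293A and -4.64, -5.08, -5.22, -5.15 and -4.76 in NIH3T3. Its difference was 6.04 ± 0.24 (SE, limma adjusted p = 2.67e-10). The 10 largest differences among genes at 5 RPKM or more in both lines and without overlap were all of ribosomal proteins, RPS29, RPL41, RPS12, RPS7, RPS20, RPL39, RPS21, RPL32, RPS28 and RPL35A, the last at 5.28. EEF1B2, a subunit of the elongation factor that reloads EEF1A1, differed by 5.08 ± 0.19. RPL17, RPS15 and RPLP1, the ribosomal protein genes of smallest p, differed by 4.95, 4.84 and 4.79, and RPLP0, a protein of the ribosomal stalk, by 4.13. The smallest difference in the group was 1.41 ± 0.16 in RPL3 (limma adjusted p = 5.05e-06), followed by 1.96 ± 0.15 in RPS2. RPL3 and RPS2, chosen after their values were seen, lay below the median gene in HEK293A too, with means of -0.81 and -0.83. Of the 76 genes with a difference of 4 or more, 55 were ribosomal proteins, as were 67 of the 142 with a difference of 3 or more.

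**Figure D2:**
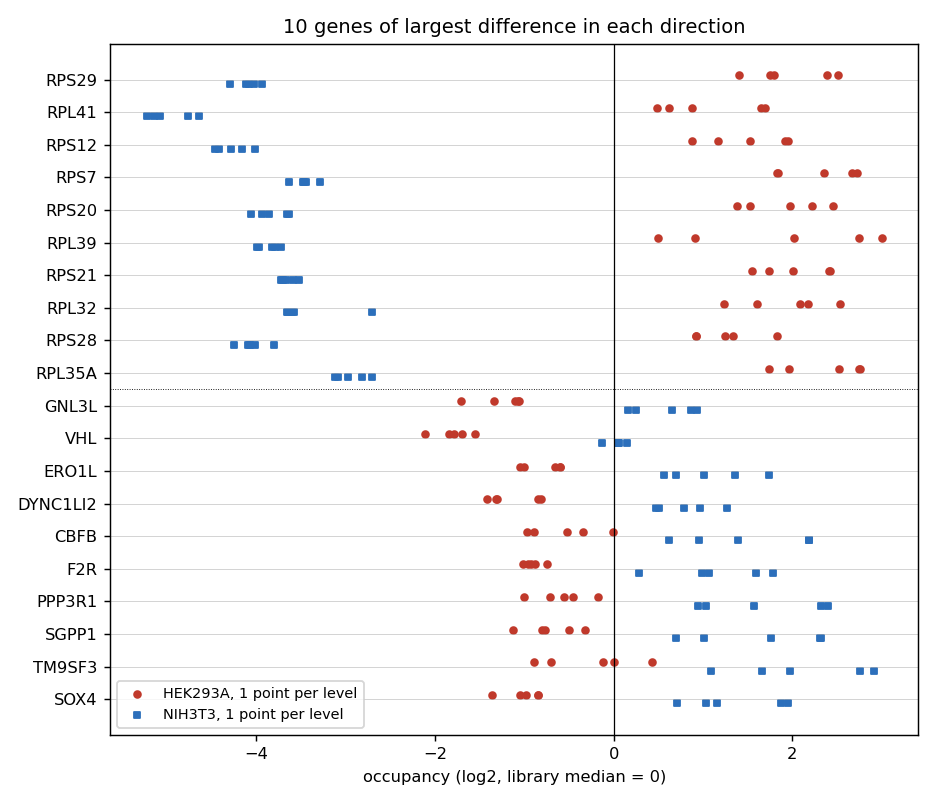
Occupancy (log2, library median at 0) at each of 5 LIN28B levels in HEK293A (circles) and NIH3T3 (squares) for the 10 genes of largest difference in each direction among those at 5 RPKM or more in both lines whose values do not overlap. In the upper 10, led by RPS29 with a difference of 6.06, HEK293A values are positive and NIH3T3 values negative, while in the lower 10, ending with SOX4 at -2.36, NIH3T3 values are the higher ones, and in no gene do the lines overlap.

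Reads of these genes also had different shares in total RNA. Ribosomal protein genes took 3.73 to 4.10% of recovered reads in HEK293A total RNA and 7.36 to 9.29% in polysome RNA. In NIH3T3 they took 16.8 to 18.9% of total RNA reads and 3.35 to 4.15% of polysome reads. The polysome share was thus above the total share at each HEK293A level and below it at each NIH3T3 level, and the total RNA shares of the lines differed more than the polysome shares did. EEF1A1 had 15014 to 21194 reads per HEK293A total RNA library and 447392 to 759508 per NIH3T3 library, from libraries that were deeper in HEK293A. The genes of the ribosome and EEF1A1 have many processed copies in both genomes. The sources used here do not say how reads that match several places were treated, and its part in the levels and ratios was not tested. The gene lengths implied by the RPKM values also differed, with a median over the ribosomal protein genes of 2896.5 bases in the human and 1454 bases in the mouse table.

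**Figure D3:**
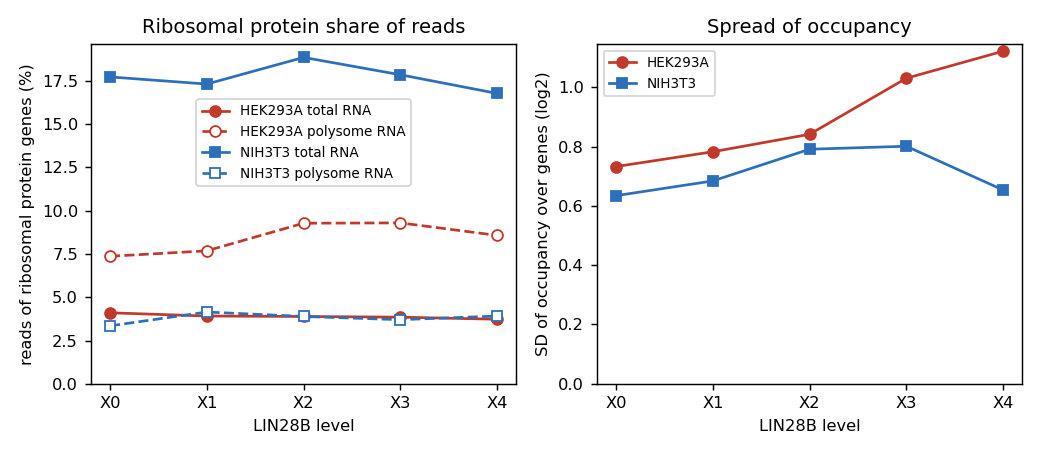
Left, share of recovered reads (percent) from cytosolic ribosomal protein genes in total RNA (filled) and polysome RNA (open) at each LIN28B level in HEK293A (circles) and NIH3T3 (squares), with NIH3T3 total RNA at 16.8 to 18.9% above all others. Right, SD of occupancy over the 7259 genes at each level, 0.73 to 1.12 in HEK293A and 0.63 to 0.80 in NIH3T3.

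Translation factors and other genes with known TOP mRNAs shared the direction. Of 21 tested, 20 were higher in HEK293A and 1, the initiation factor subunit EIF3A, was lower by -0.60 ± 0.24 (SE, limma adjusted p = 0.0471). The call of EIF3A ended in several alternatives, with adjusted p up to 0.145. The list's median difference was 2.20, with medians of 0.14, 0.65, 0.64, 1.08 and 1.18 in HEK293A and -2.46, -1.89, -1.83, -1.66 and -1.84 in NIH3T3. EEF1A1, the factor that brings aminoacyl-tRNA to the ribosome, had an occupancy of 0.33, 0.68, 1.21, 1.36 and 1.18 in HEK293A and -3.94, -3.32, -3.31, -3.29 and -3.26 in NIH3T3. It differed by 4.37 ± 0.21 (SE, limma adjusted p = 1.13e-09). TPT1, a growth-related protein long known for its TOP start, differed by 4.22, NACA, which binds chains leaving the ribosome, by 3.64, and GNB2L1 (RACK1), a scaffold on the small subunit, by 3.51. The elongation factor EEF2 differed less, by 1.73 ± 0.21, and was below the median gene in both lines at -0.95 and -2.68. PABPC1, the poly(A)-binding protein, differed by 1.15 with centring on the median but by -0.41 after quantile normalization. NPM1, a nucleolar chaperone, differed by 1.87, with NIH3T3 values from -1.92 at X0 to 0.35 at X3.

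Initiation factors outside that list, the enzymes that charge tRNAs and nucleolar assembly factors had medians of 0.19 to 0.37, against -0.02 over all genes. Of 31 other initiation and release factors 13 were higher (41.9%) and 2 lower (6.45%). Their median of 0.19 turned to -0.87 without centring, -0.02 after quantile normalization and -0.05 at 5 RPKM or more. EIF3K, EIF1 and EIF4EBP1, the last an inhibitor of cap binding, differed by 2.81, 1.93 and 1.63. Of 23 aminoacyl-tRNA synthetase genes and partners, 11 were higher (47.8%) and 2 lower (8.70%), with a median of 0.37 that turned to -0.69 without centring. Without HEK293A X3 7 were higher, and after quantile normalization 6 were higher and 5 lower. KARS, SARS and the scaffold protein AIMP1 differed by 1.90, 1.35 and 2.07. Of 39 nucleolar ribosome biogenesis genes 11 were higher (28.2%, against 30.5% of all genes) and 7 lower (17.9%, against 26.8%). The higher count was 7 without HEK293A X3, NIH3T3 X0 or NIH3T3 X4. Their median of 0.20 turned negative without centring (-0.86), after quantile normalization (-0.050) and at 5 RPKM or more (-0.055). WDR12 and NOB1 differed by 1.39 and 1.17, and NOP56, a core protein of small nucleolar particles, by -0.83.

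**Figure D4:**
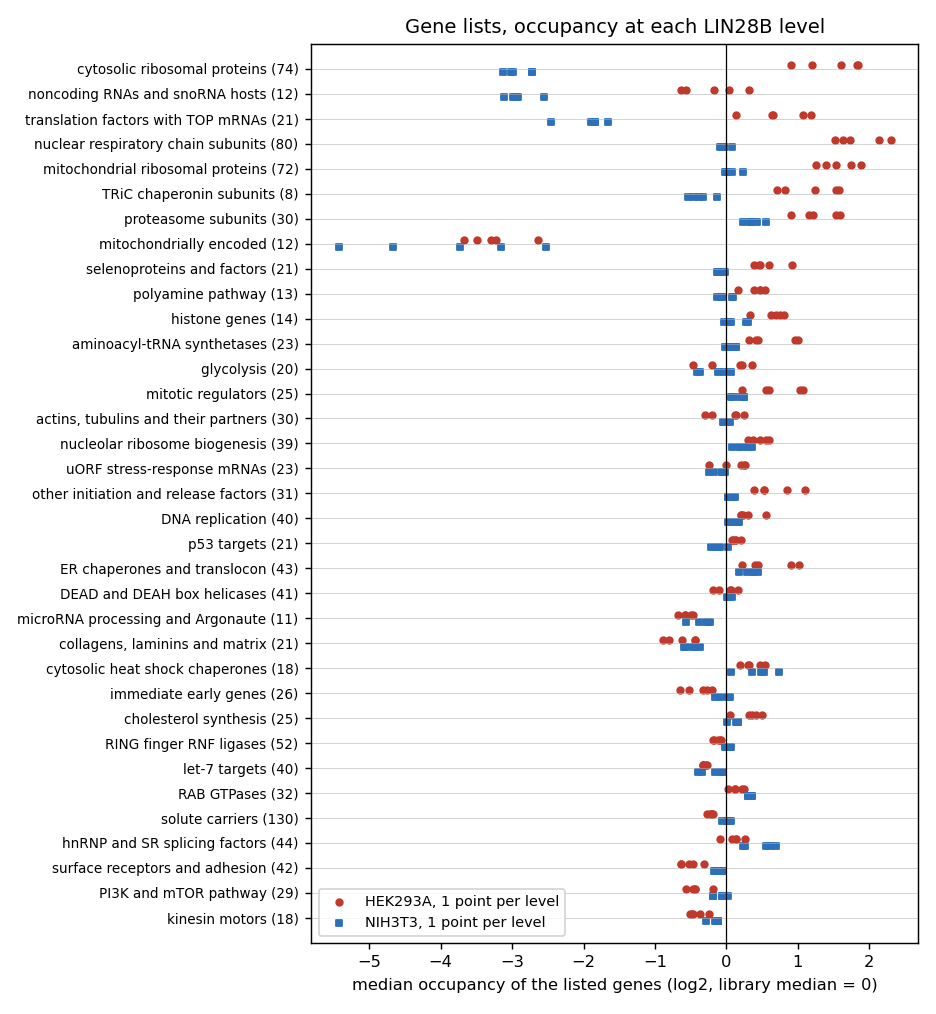
Median occupancy (log2, library median at 0) of 35 gene lists at each of 5 LIN28B levels in HEK293A (circles) and NIH3T3 (squares), ordered by the median difference, with the number of tested genes in brackets. The cytosolic ribosomal proteins at the top differ by 4.39 and the kinesin motors at the bottom by -0.29, and without centring positive differences turn negative for all lists from the proteasome subunits down.

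Noncoding RNAs that host small nucleolar RNAs, several of which are known to have TOP starts, also had a higher occupancy in HEK293A. Of 12 noncoding RNAs tested 10 were higher and 2 lower, with a median difference of 2.76. GAS5 had an occupancy of -0.22, -0.18, -0.24, 0.64 and 0.81 in HEK293A and -3.81, -3.39, -3.78, -3.51 and -3.55 in NIH3T3, a difference of 3.77 ± 0.22 (SE, limma adjusted p = 6.99e-09). SNHG9 differed by 5.32 and SNHG7 by 3.74. The 2 lower ones host no small nucleolar RNA. TUG1, a long noncoding RNA of nucleus and cytoplasm, differed by -1.59 ± 0.30 (SE, limma adjusted p = 0.000441), and NEAT1, the nuclear scaffold of paraspeckles, by -0.96 ± 0.20 (SE, limma adjusted p = 0.00112). NEAT1 was far under the median gene in both lines, at -2.90 in HEK293A and -1.94 in NIH3T3.

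Nuclear genes for mitochondrial proteins showed a different pattern, high in HEK293A and near the median gene in NIH3T3. Of 80 respiratory chain subunits and assembly factors, 74 were higher and 1 lower in HEK293A, with a median difference of 1.90. Their medians per level were 1.53, 1.64, 1.73, 2.13 and 2.30 in HEK293A and -0.03, 0.08, -0.09, -0.06 and -0.04 in NIH3T3. Of 72 mitochondrial ribosomal protein genes 61 were higher and 3 lower, with a median difference of 1.47 and medians of 1.26 to 1.89 in HEK293A and -0.02 to 0.23 in NIH3T3. So in both lists the NIH3T3 medians sat within 0.23 of the median gene at each level, unlike the median of the cytosolic ribosomal proteins, while single genes lay farther away.

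COX7A2L, which links respiratory complexes into supercomplexes, had an occupancy of 1.35, 1.67, 2.02, 2.21 and 2.47 in HEK293A and -3.04, -2.82, -2.77, -2.78 and -2.59 in NIH3T3. Its difference of 4.74 ± 0.19 (SE, limma adjusted p = 3.01e-10) was the largest in the respiratory list, and its NIH3T3 values, unlike the list median, were far below 0. NDUFA3, of complex I, and COX8A, of complex IV, differed by 3.49 and 3.19. TOMM7, of the channel that imports proteins into mitochondria, differed by 4.11. SDHA, of complex II, was the 1 lower gene of the respiratory list, at -0.78. Among mitochondrial ribosomal proteins MRPL33, MRPL54 and MRPL52 differed by 3.39, 3.24 and 3.06, and MRPL54 ranged from 2.10 to 2.76 in HEK293A and from -1.03 to -0.57 in NIH3T3.

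The 12 transcripts of the mitochondrial genome had the lowest list median in both lines over the mean of the 5 levels, though at NIH3T3 X3 the cytosolic ribosomal proteins (-2.99) and noncoding RNAs (-2.56) were lower than their -2.53. Each was among the lowest 726 of the 7259 genes in both, and their medians per level ran from -3.67 to -2.64 in HEK293A and from -5.43 to -2.53 in NIH3T3. Of the 12, 4 were higher in HEK293A (33.3%, against 30.5% of all genes), namely MT-CO1, MT-CO3, MT-CO2 and MT-ND5. The 1 lower gene was MT-ND6. Without NIH3T3 X3 the list had 7 higher and a median of 0.999, and without NIH3T3 X1 a median of 0.28. MT-CO1, a catalytic subunit of complex IV, had values of -1.97, -1.64, -2.22, -1.38 and -1.36 in HEK293A and -5.55, -5.44, -4.35, -3.84 and -4.60 in NIH3T3, a difference of 3.04 ± 0.30 (SE, limma adjusted p = 1.7e-06). MT-CO3 differed by 2.996. The differences of MT-CO2 (1.34) and MT-ND5 (1.27) turned to -0.05 and -0.47 after quantile normalization. MT-ND6, the 1 of these genes on the light strand, differed by -1.52, and the list's median of 0.65 turned to -0.85 after quantile normalization and -0.40 without centring. The call of MT-ND6 ended with a pseudocount of 0.1 (limma adjusted p = 0.0586).

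The TRiC chaperonin and the proteasome had smaller positive medians than the nuclear genes for mitochondrial proteins, while other chaperone lists had medians near that of all genes. All 8 TRiC chaperonin subunits, the ring that folds actin and tubulin, were higher in HEK293A, with a median of 1.12, falling to 0.07 without centring. CCT2 had 1.01, 1.37, 1.72, 2.07 and 2.19 in HEK293A and -1.12, -0.73, -0.63, -0.50 and -0.65 in NIH3T3, and differed by 2.40, while CCT5 and CCT4 differed by 2.09 and 1.92. Of 30 proteasome subunits 22 were higher and 2 lower, with a median of 0.83 that turned to -0.22 without centring. PSMB1, PSMA5 and PSMB3 differed by 2.30, 2.15 and 1.82. Of 18 genes listed as cytosolic heat shock chaperones 5 were higher (27.8%, against 30.5% of all genes) and 6 lower (33.3%, against 26.8%). Their median was -0.09, against -0.02 over all genes. The higher ones included HSPA8, the constitutive Hsp70 (3.09), HSP90AB1 (1.41) and HSPE1 (3.41), which is a mitochondrial co-chaperonin and not cytosolic. Of 43 genes of the endoplasmic reticulum 16 were higher (37.2%) and 7 lower (16.3%), or 11 lower without NIH3T3 X0, with a median of 0.04. OST4, SSR4 and SEC61B differed by 4.07, 2.94 and 2.86. HSPA5, the Hsp70 of that compartment, differed by -1.12 ± 0.25 (SE, limma adjusted p = 0.00153), with NIH3T3 values from 0.04 at X0 to 1.56 at X3 that reached into the HEK293A range.

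Some mRNAs with special translation control were higher in HEK293A and others lower. ATF4, a stress transcription factor held back by upstream reading frames, had an occupancy of 0.85, 0.90, 0.98, 1.15 and 1.22 in HEK293A and -0.58, -1.38, -1.45, -1.09 and -1.17 in NIH3T3, a difference of 2.16 ± 0.17 (SE, limma adjusted p = 1.58e-07). DDIT3, its target with an upstream frame of its own, differed by 2.50, whereas PPP1R15B, a phosphatase subunit of the same class, differed by -1.42. ATF4, DDIT3 and PPP1R15B belong to a wider list of stress-response mRNAs, whose members were not checked for upstream frames here. Of its 23 tested genes 7 were higher (30.4%, against 30.5% of all genes) and 3 lower, with a median of 0.19 (-0.87 without centring). Of 21 selenoprotein genes and factors 12 were higher and 1 lower, with a median of 0.62 that turned to -0.43 without centring. GPX1, which reads a stop codon as selenocysteine, had 1.72, 1.34, 1.38, 1.42 and 1.71 in HEK293A and -2.25, -3.13, -3.08, -2.84 and -2.73 in NIH3T3, and differed by 4.32. SEPW1 differed by 4.18 and SELM by 2.28. Of 13 genes of the polyamine pathway 7 were higher and 2 lower, with a median of 0.55 that turned to -0.51 without centring. OAZ1 and OAZ2, antizymes made by a frameshift, differed by 2.03 and 1.40, SAT1 by 1.65 and AMD1 by 1.57. ODC1, the enzyme that antizyme degrades, differed by 0.85, or -0.20 without centring. FTH1, the ferritin heavy chain with an iron-responsive element, differed by 1.69, or -0.074 after quantile normalization, and was low in both lines at -1.99 and -3.68.

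In the other direction 1947 genes were lower in HEK293A, and fewer of them by a large amount. At least 2-fold, 1189 genes were higher (16.4%) and 417 lower (5.74%). After quantile normalization these counts were 842 and 723, so that the higher share of such calls was 74.0% with centring and 53.8% then, and it was 7.62% without centring. Only 13 genes reached a difference of -2 or less. SOX4, a transcription factor of progenitor cells, had an occupancy of -0.98, -0.85, -0.85, -1.36 and -1.05 in HEK293A and 1.03, 0.71, 1.96, 1.88 and 1.16 in NIH3T3, without overlap. Its difference was -2.36 ± 0.23 (SE, limma adjusted p = 1.31e-06), a 5.15-fold lower ratio. In RPKM, SOX4 polysome levels were 4.10 to 7.43 against 15.1 to 16.7 in total RNA in HEK293A, and 15.6 to 25.4 against 3.40 to 5.73 in NIH3T3. TM9SF3, a membrane protein of the secretory pathway, had -0.89, 0.00, -0.70, -0.12 and 0.43 in HEK293A and 1.09, 1.67, 2.76, 2.91 and 1.97 in NIH3T3, and differed by -2.33 ± 0.34 (SE, limma adjusted p = 5.53e-05). Among genes at 5 RPKM or more in both lines and without overlap these were the largest 2, and the next 10 differed by -2.33 (SGPP1) to -1.80 (TRIM44).

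These 12 genes are of mixed function. SGPP1 removes phosphate from sphingosine phosphate, F2R is the thrombin receptor, CBFB a partner of RUNX factors and DYNC1LI2 a dynein subunit. PPP3R1 and PPP3CA, the regulatory and a catalytic subunit of the phosphatase calcineurin, differed by -2.23 and -1.81. ERO1L, an oxidase of the endoplasmic reticulum, differed by -1.85 and GNL3L, a nucleolar GTPase, by -1.83. VHL, which marks hypoxia factors for breakdown, had -1.79, -1.55, -1.69, -1.84 and -2.11 in HEK293A and 0.05, -0.13, 0.15, 0.05 and 0.06 in NIH3T3. The VHL difference of -1.83 ± 0.13 (SE, limma adjusted p = 7.79e-08) had the smallest standard error of the 12. In 11 of the 12, all but VHL, NIH3T3 values were highest at X2 and X3, as in SGPP1 with 0.70, 1.01, 2.32, 2.31 and 1.76.

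Lists with a negative median differed by small amounts, and several of these medians were nearer 0 against genes of like length, as given with gene length below. Of 44 hnRNP and SR splicing factors 16 were lower (36.4%, against 26.8% of all genes) and 7 higher (15.9%, against 30.5%), with a median of -0.24. HNRNPM, HNRNPUL2 and HNRNPD differed by -1.71, -1.20 and -1.03. Of 130 solute carriers 47 were lower (36.2%) and 20 higher (15.4%), with a median of -0.24. The higher ones included SLC25A5, the ADP and ATP carrier of mitochondria (1.58). Of 42 surface receptors 13 were lower (31.0%) and 2 higher (4.76%), with a median of -0.24, or -0.02 against genes of like length. IGF2R and LRP8 differed by -0.93 and -0.92, and CD9 by 1.10. Of 21 matrix genes 5 were lower (23.8%, under the 26.8% of all genes) and 0 higher, with a median of -0.07 that turned to 0.04 after quantile normalization, where 3 were higher. The 5 included the crosslinking enzyme LOX (-1.33) and NID1 (-1.004). Of 29 genes of the PI3K and mTOR pathway 11 were lower (37.9%) and 4 higher (13.8%), with a median of -0.28. The lower count was 7 without HEK293A X2, NIH3T3 X2 or NIH3T3 X3. The pathway includes the kinase PDPK1 at -1.0002 and LAMTOR1, which anchors mTORC1 at lysosomes, at 2.02. Of 26 immediate early genes 11 were lower (42.3%) and 3 higher (11.5%), with KLF6 at -1.79, MCL1 at -1.03 and ID2 at 1.53. JUN differed by -0.58, and its limma adjusted p of 0.0272 rose to as much as 0.237 when levels were left out. Of 32 RAB GTPases 10 were lower (31.25%, against 26.8% of all genes) and 3 higher (9.4%, against 30.5%), with a median of -0.21. RAB33B differed by -2.05 and RAB28 by 2.00. Lists with a median above 0 also held lower genes. Of 21 p53 targets 7 were higher (33.3%, against 30.5% of all genes) and 3 lower (14.3%, against 26.8%), with a median of 0.16. TRIAP1 differed by 2.48 and MDM2, the ligase of p53, by -1.65. Of 41 DEAD and DEAH box helicases 13 were lower (31.7%) and 8 higher (19.5%), with a median of 0.003 and DDX17 at -1.22. Of 11 microRNA processing genes 4 were lower (36.4%) and 2 higher (18.2%), with DGCR8 at -1.27, AGO2 at -0.95 and TARBP2 at 0.84.

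Cell cycle genes split. Of 25 mitotic regulators 11 were higher (44.0%, against 30.5% of all genes) and 7 lower (28.0%, against 26.8%), with CENPA at 1.67 and CCNB1 at 1.37. Of 40 replication genes 15 were higher (37.5%) and 7 lower (17.5%), with RFC4 at 2.33. CDK4 differed by 1.19. Common reference genes went in opposite directions. ACTB had -0.08, -0.41, -0.42, -0.97 and -0.97 in HEK293A and 0.55, 0.14, 0.27, 0.15 and 0.38 in NIH3T3, a difference of -0.87 ± 0.18 (SE, limma adjusted p = 0.00113). GAPDH had 0.63, 0.66, 0.47, 0.52 and 0.21 against -0.93, -0.62, -1.14, -1.18 and -0.88, a difference of 1.45 ± 0.15 (SE, limma adjusted p = 2.01e-06). VIM differed by 1.90. Of 40 let-7 target genes 14 were lower (35.0%) and 9 higher (22.5%), with a median of -0.18. The members of smallest p, GNG5, HRAS and LIMD2, were higher, by 3.27, 1.55 and 1.44. Among LIN28B and let-7 related genes, IGF2BP2 differed by -0.93 (limma adjusted p = 0.0016). HMGA2 (-0.41), IGF2BP1 (-0.29), IGF2BP3 (-0.04) and DICER1 (-0.03) missed the threshold, which does not show that they are alike in the 2 lines.

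Occupancy fell with gene length in HEK293A and hardly in NIH3T3, and the difference between the lines fell with human and with mouse lengths. With the genes split into 5 equal groups by HEK293A gene length, median occupancy in HEK293A was 0.83, 0.28, -0.09, -0.26 and -0.49 from the shortest to the longest genes. In NIH3T3 the same genes had medians of 0.05, 0.06, 0.04, 0.01 and -0.10. The median difference was 0.77, 0.20, -0.10, -0.24 and -0.37, and 63.2% of the shortest group (up to 2848 bases) were higher in HEK293A against 9.10% of the longest. With mouse lengths the median differences were 0.81, 0.15, -0.11, -0.22 and -0.35. Across genes, which are not independent replicates, Spearman's rho of mean occupancy with length was -0.50 in HEK293A and -0.08 in NIH3T3.

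**Figure D5:**
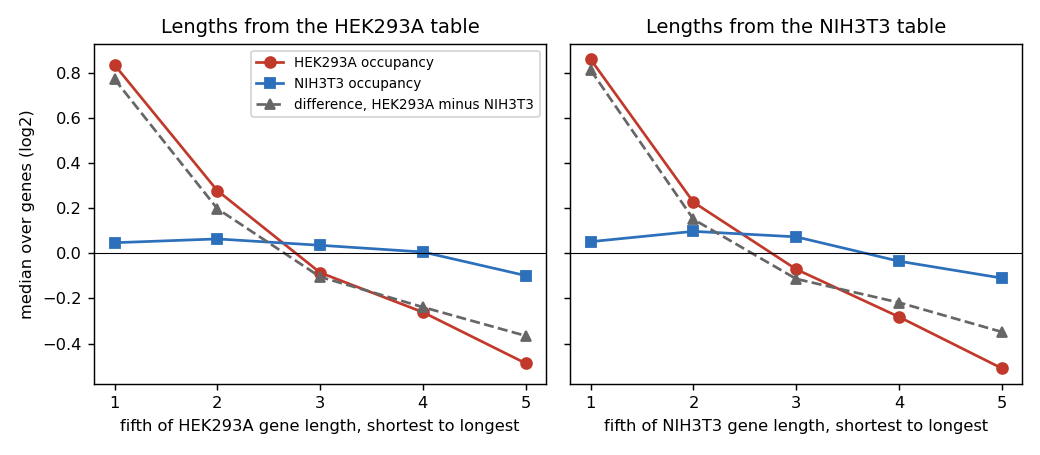
Median occupancy (log2) over genes in 5 equal groups of gene length, from the shortest to the longest, for HEK293A (circles), NIH3T3 (squares) and the difference (triangles), with lengths from the human table at left and the mouse table at right. HEK293A falls from 0.83 to -0.49 at left while NIH3T3 stays between -0.10 and 0.06.

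Several lists that differed are of short genes, the TOP translation factors being an exception with a median length of 6005 bases against 4764 over all genes. Each list's median was therefore set beside that of genes of like length (20 equal groups by HEK293A length, a step added after the data were seen). Less that median, the cytosolic ribosomal proteins kept 4.07 of 4.39, the TOP translation factors 2.13 of 2.20, the noncoding RNAs 2.30 of 2.76, the respiratory chain 1.38 of 1.90 and the mitochondrial ribosomal proteins 0.72 of 1.47. The proteasome kept 0.70 and TRiC 0.97. The median changed sign for the histones (0.52 to -0.13), the mitochondrially encoded genes (0.65 to -0.77), the actins and tubulins (0.20 to -0.08), the p53 targets (0.16 to -0.05), the let-7 targets (-0.18 to 0.03), the microRNA processing genes (-0.05 to 0.36) and the matrix genes (-0.07 to 0.12). Of the lists with lower medians, the surface receptors went from -0.24 to -0.02, the PI3K and mTOR pathway from -0.28 to -0.07, the kinesins from -0.29 to -0.09, the splicing factors from -0.24 to -0.15 and the solute carriers from -0.24 to -0.18. The polyamine list went from 0.55 to 0.15, and the immediate early genes moved the other way, from -0.09 to -0.66.

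Over all genes the order of occupancy was shared within a line and weakly between lines. Spearman's rho over the 7259 genes was 0.66 to 0.97 between 2 levels of HEK293A, 0.55 to 0.96 between 2 levels of NIH3T3 and -0.02 to 0.40 between a level of each. For the line means it was 0.29, and 0.32 without the ribosomal protein genes. Of the 726 genes highest in HEK293A, 126 were among the 726 lowest in NIH3T3, and 44 of them were ribosomal proteins. The reverse held for 17 genes, SOX4, F2R, DYNC1LI2, KLF6, RAB33B and TUG1 among them. The 5 values of a gene did not overlap between lines in 1769 genes with HEK293A higher (24.4%) and in 1354 with HEK293A lower (18.7%).

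The spread of occupancy over genes (SD) was 0.73, 0.78, 0.84, 1.03 and 1.12 in HEK293A from X0 to X4 and 0.63, 0.68, 0.79, 0.80 and 0.65 in NIH3T3. The means were 0.90 ± 0.17 and 0.71 ± 0.08 (SD, n = 5), and the difference of 0.19 did not pass a two-sided exact permutation test (p = 0.0556, smallest possible 0.00794). Without the ribosomal protein genes the SD means were 0.89 and 0.65 and the exact permutation p was 0.0159. At the RPKM minimum, WHSC1L1, ZFAT and MIER1 were the last genes inside (NIH3T3 means of 1.001 to 1.003 RPKM) and TCAIM, AHCYL2 and R3HCC1L the first outside.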

How the data were processed

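RPKM values were deposited by the authors in 1 table for HEK293A and 1 for NIH3T3, with 1 column per level and fraction. The submitters' processing notes name cutadapt, STAR, hg19 and mm10. Counting tool, annotation release and strand setting are not named in the sources used here. Per the labels' protocols, RNA was extracted with Trizol and prepared with a polyA kit. The other 10 libraries were not used here. Members and gene lists were chosen with earlier results of these data known.

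Occupancy was computed with a pseudocount of 0.5, which understates differences of low genes, and centred on each library's median over the 7259 genes. For repeated symbols the row of highest mean was kept (2 human and 92 mouse rows dropped). Lines were compared with limma 3.58.1 (R 4.3.3, eBayes defaults), 5 values against 5, with Benjamini-Hochberg adjustment over all genes and a threshold of 0.05. Reads and gene lengths were recovered from the steps of the RPKM values, within 0.02 of a whole number, for 11342 of 11342 human genes and 19090 of 21042 mouse genes above 0, including every gene compared. They gave depths, shares, lengths and counting errors, and no count test was run. On simulated data for this comparison (7259 genes) the fit recovered 84% of 100 genes changed by 1 log2 unit and 99% of 100 changed by 2, with 14 false calls (7.11% of calls). Only those genes were changed there, and noise was drawn independently for each level. In the data 57.3% of genes were called, so the simulated rates need not hold for the calls given here.

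Genes were named by rule: LIN28B first, then in each direction the 12 largest differences past the threshold without overlap and at 5 RPKM or more in each line, in each of 35 lists with at least 5 tested genes the 3 members of lowest p at most, and a fixed panel. Not every gene picked by this rule is named in the text. Sequences are from RefSeq (GRCh38.p14). A description by protein length was not run. Alternatives covered pseudocount, filter, centring, leaving out each level, and the model. Statistics used scipy 1.17.1.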

Additional observations from a re-analysis of the deposited data

Results flagged for a closer look

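Each set of 5 level values behind a list or gene of the text was checked for 1 level far from the other 4 of its line (a gap above 0.71 of the range). Of 314 sets 13 met this, where about 1 in 20 is given by chance. In HEK293A these were the median of the replication genes at X3 (0.55), GNB2L1 at X3 (1.08), EIF1 at X0 (0.49), HSPA5 at X4 (-0.34), HNRNPUL2 at X4 (-0.90) and MCL1 at X1 (-0.54). In NIH3T3 they were the median of the kinesins at X0 (-0.28), that of the cholesterol genes at X2 (0.0027), RPL32 at X4 (-2.70), EEF1A1 at X0 (-3.94), PSMA5 at X1 (0.12), CENPA at X0 (-0.65) and VIM at X0 (-2.25).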

How the results depend on the processing

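The 4158 calls ranged from 3796 to 4438 when 1 level of 1 line was left out. Higher and lower calls then ran from 2064 to 2334 and from 1732 to 2104, calls past 2-fold from 1547 to 1698, and genes without overlap from 3168 to 3630. With the LIN28B level as a block (replicate block) 2344 genes were higher and 2148 lower. No centring shifted the median difference of all genes to -1.08, and gave 709 higher and 5460 lower calls (11.5% higher, against 53.2%), 4252 calls past 2-fold (324 higher, 3928 lower) and 5326 genes without overlap (561 and 4765). At 5 RPKM or more, with fewer genes tested, 1409 were higher and 1153 did not overlap with HEK293A higher. After quantile normalization 723 genes were lower past 2-fold. Ribosomal protein genes were higher in 70 to 74 cases, and lower in 0, in every alternative, with medians from 3.34 to 4.50. The 70 were all of the 70 tested at 5 RPKM or more, and without centring 73 of 74 were higher.

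Without centring the medians of the synthetases (-0.69), nucleolar genes (-0.86), proteasome (-0.22), replication genes (-0.88), histones (-0.53), polyamine pathway (-0.51), selenoproteins (-0.43) and p53 targets (-0.89) turned negative, as did ODC1 (-0.20). Quantile normalization turned the nucleolar genes (-0.050), replication genes (-0.0028), PABPC1 (-0.41), MT-ND5 (-0.47), MT-CO2 (-0.050) and FTH1 (-0.074), and DICER1 to 0.033. The nucleolar median was -0.055 at 5 RPKM or more, and DICER1 was 0.015 with a pseudocount of 1. Less the median of genes of like length, the medians of histones (-0.13), p53 targets (-0.052) and let-7 targets (0.028), and of 4 other lists given with gene length above, changed sign. With 1 level left out DICER1 ran from -0.20 to 0.086 and IGF2BP3 from -0.16 to 0.10. The cause was not tested.

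The difference in spread over genes was 0.18 with a pseudocount of 1, 0.20 without filter and 0.19 with NIH3T3 total RNA at 1 RPKM or more (exact permutation p = 0.0317 in each). It was 0.183 with a pseudocount of 0.1 (exact permutation p = 0.0873) and 0.165 at 5 RPKM or more (exact permutation p = 0.135), ran from 0.13 to 0.23 with 1 level left out (exact permutation p from 0.0476 to 0.111), and was 0.08 over X0 to X2 (exact permutation p = 0.3). Quantile normalization makes the spread equal and gives no value. Depth limits low genes in NIH3T3, where 940 genes compared fell under 1 RPKM in some total RNA library.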
